A study of Mus musculus with 4 samples.

Results

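The guanylate-binding proteins are large GTPases that cells make after exposure to interferons, and the 10 mouse genes Gbp2 to Gbp11 are described here in C2C12 myoblasts, an established mouse muscle precursor line. The genes were found by symbol on the transcript lines of the deposited expression files, and a gene's level is the sum of TPM (a length-corrected share of all transcripts, scaled to the same total in every library) over its annotated transcripts. They are 10 of 55416 genes in the files, and all 10 were among the 16304 genes with a mean of at least 0.5 TPM that were tested. On chromosome 3 lie 4 of them, Gbp2, Gbp3, Gbp5 and Gbp7, and on chromosome 5 the other 6, Gbp4, Gbp6, Gbp8, Gbp9, Gbp10 and Gbp11.

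In the K97E group (2 libraries) cells were transfected with lamin A carrying K97E, a mutation that the series ties to dilated cardiomyopathy, and in the wild-type group (2 libraries) with wild-type lamin A. The cell line field reads C2C12 for all 4 samples, but the titles of both K97E samples read C1C12, and which is right was not tested. Both groups received 3 µg of DNA with a lipid reagent and were harvested after 24 h, so both carry transfected DNA on top of the cells' own lamin genes. The model is transient overexpression in 1 cell line, the species of the lamin A insert and the share of transfected cells are not given in the labels, and untransfected cells were not analysed here. The labels call the samples biological replicates without saying whether they came from separate cultures, so p-values measure only the spread between these samples.

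Guanylate-binding proteins bind and hydrolyse GTP and assemble on membranes, on the vacuoles of intracellular parasites and on the surface of cytosolic bacteria. In mouse macrophages they help to break open such compartments and to bring bacterial lipopolysaccharide to caspase-11, and interferon gamma is their best known inducer. Immunity-related GTPases and the ATG8 conjugation machinery work with them on parasite vacuoles, and a C-terminal prenyl anchor holds some members, Gbp2 and Gbp5 among them, on membranes.

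The libraries held between 89600000 and 115600000 estimated reads. Wild-type replicate 1 was the shallowest and gave 7.37% of its TPM to mitochondrial genes, against 5.29% to 5.55% in the other libraries. Several myoblast markers were present, with Des at 384 to 467 TPM, Myf5 at 41.5 to 47.8 TPM, Cdh15 at 39.7 to 48.4 TPM and Myod1 at 4.56 to 4.96 TPM. The differentiation factor Myog was at 0 in 3 of 4 libraries. Pax7 was at 0 in all libraries but K97E replicate 1, where it stood at 0.00647 TPM. Over the 16304 genes, limma called 1 gene at an adjusted p under 0.05, which was higher with K97E (0.00613% of the genes tested), and 0 lower (0.0%). In all, 600 genes had an unadjusted p under 0.05.

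Every guanylate-binding protein gene had a lower mean in K97E than in wild-type libraries, and none of the 10 differences passed the test over all genes. The log2 differences (K97E minus wild type, on log2 of scaled TPM + 0.5) were between -0.70 for Gbp5 and -0.19 for Gbp3, with a median of -0.44, beside a median of -0.0017 and a negative difference in 50.5% of all genes tested. Limma gave all 10 genes an adjusted p of 0.965 (Benjamini-Hochberg over 16304 genes), and 6 of the 10 had an unadjusted p under 0.05 with a lower K97E mean, beside 2.54% of all genes tested. After scaling, both K97E libraries were below both wild-type libraries for 9 of the 10 genes, beside 16.8% of all genes tested, and in the deposited TPM for 8 of 10, beside 9.72%. In all genes tested, 3.53% had a log2 difference at or under the median of the 10 genes. In bulk RNA of a transfected culture, fewer expressing cells and less RNA per cell cannot be told apart.

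**Figure D1:**
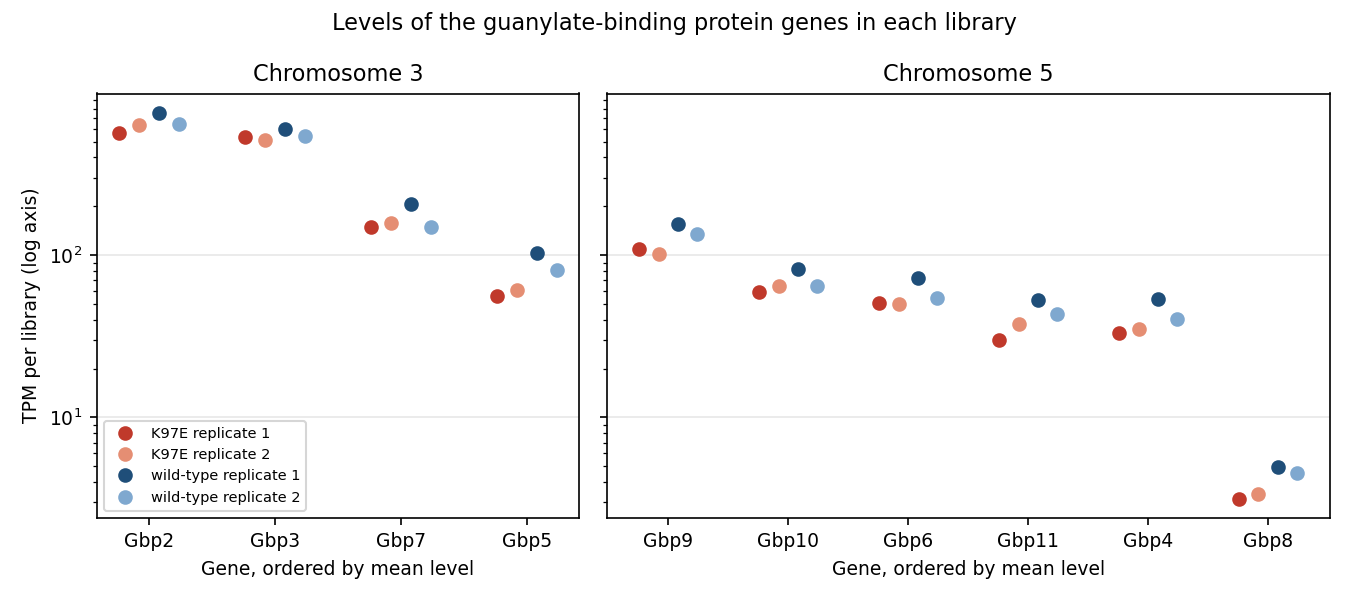
Deposited TPM (log axis) of each guanylate-binding protein gene in each of the 4 libraries, with genes ordered by mean level within chromosome 3 and chromosome 5 (red, K97E; blue, wild type; 1 point a library). Wild-type replicate 1 is the highest point for all 10 genes, and levels run between 3.16 TPM for Gbp8 and 754 TPM for Gbp2.

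Promoter sequences are shown for the chromosome 3 genes with the largest difference (Gbp5) and the highest level (Gbp2). Both hold letter matches to sequence elements through which interferons are known to act. RefSeq promoter sequences (GRCm38.p6, 250 bases before to 50 after the start) were at hand for 4 of the 10 genes, all on chromosome 3. Capitals mark matches to the interferon-stimulated response element (ISRE, letters GAAA, then any 2 bases, then GAAA) or to the gamma-activated site (GAS, letters TTCNNNGAA), each searched on both strands.
Gbp5, chr3:142496684-142496983, plus strand: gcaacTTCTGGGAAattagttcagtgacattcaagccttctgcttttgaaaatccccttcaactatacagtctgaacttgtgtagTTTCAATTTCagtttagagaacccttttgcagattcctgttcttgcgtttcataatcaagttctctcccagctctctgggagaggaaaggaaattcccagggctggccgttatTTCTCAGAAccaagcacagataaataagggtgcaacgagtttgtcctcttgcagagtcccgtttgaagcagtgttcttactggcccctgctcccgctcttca
Gbp2, chr3:142620413-142620712, plus strand: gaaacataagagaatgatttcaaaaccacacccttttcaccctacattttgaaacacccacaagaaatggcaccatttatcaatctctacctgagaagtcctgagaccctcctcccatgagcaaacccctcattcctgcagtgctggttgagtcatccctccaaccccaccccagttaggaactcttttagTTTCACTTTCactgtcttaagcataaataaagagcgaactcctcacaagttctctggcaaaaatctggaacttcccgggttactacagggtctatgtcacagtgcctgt
Gbp5 held 1 ISRE match at positions -165 to -156 from the start and 2 GAS matches beginning at -245 and -52. Gbp2 held 1 ISRE match at -59 to -50 and 0 GAS matches. Gbp7 (chr3:142530086-142530385) held 1 ISRE match at -53 to -44 and 2 GAS matches at -106 and -87. Of 2 promoters listed for Gbp3, the first (chr3:142559794-142560093) held 2 overlapping ISRE matches beginning at -45 and -39, and the second held neither motif. All these ISRE matches were on the minus strand. Among 32851 RefSeq promoters of the same length, 3.44% held an ISRE match, 8.30% a GAS match and 0.454% both. A match describes letters in the window and was not tested as a binding site, and a link between matches and differences was not tested.

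The genes spanned a wide range of levels. Per length, Gbp2 averaged 649 TPM over the 4 libraries, Gbp3 548 TPM, Gbp7 166 TPM, Gbp9 125 TPM, Gbp5 75.5 TPM, Gbp10 67.6 TPM, Gbp6 56.7 TPM, Gbp11 41.0 TPM, Gbp4 40.5 TPM and Gbp8 3.997 TPM. The chromosome 3 genes took 4 of the first 5 places, and Gbp2 stood at the 98.7th percentile of level among tested genes, against the 27.8th percentile for Gbp8. The ranges over the 4 libraries of neighbours in this order overlapped, except between Gbp3 and Gbp7 and between Gbp4 and Gbp8. Within each library the order was the same in all 4 libraries for 7 of the 9 neighbouring pairs. Gbp5 was above Gbp10, and Gbp11 above Gbp4, in only 2 of 4 libraries.

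On chromosome 3 the genes lie on the plus strand in the order Gbp5, Gbp7, Gbp3 and Gbp2, within 144 kb (GRCm39 chr3:142199739-142343769). In mouse macrophages, deletion of this cluster is known to impair control of Toxoplasma and caspase-11 responses to bacteria. Their summed level was 1306 and 1366 TPM in the K97E libraries, against 1666 and 1415 TPM in the wild-type libraries. The means were 1336 ± 42.2 TPM with K97E and 1541 ± 178 TPM with wild-type lamin A (SD, n = 2 each), a log2 ratio of -0.26 on scaled sums, which was -0.14 without wild-type replicate 1. The K97E sums lay below both wild-type sums, but the gap to wild-type replicate 2 was smaller than the spread between the wild-type libraries.

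Gbp5 (ENSMUSG00000105504, chr3:142199739-142228105) is known in mouse macrophages for promoting NLRP3 inflammasome assembly. Its level was 56.4 and 61.0 TPM in K97E libraries, against 103 and 81.5 TPM in wild-type libraries. Both K97E libraries were below both wild-type libraries, and the K97E libraries were closer to each other than the wild-type libraries were. The means were 58.7 ± 3.27 and 92.3 ± 15.2 TPM (SD, n = 2 each), the log2 difference was -0.70 (SE 0.140), and its unadjusted p of 0.00316 ranked 40 of 16304 in limma (adjusted p 0.965). Gbp5 made up 4.32% and 4.47% of the chromosome 3 sum with K97E, against 6.18% and 5.76% with wild-type lamin A. Its share of the cluster was thus lower in both K97E libraries. Leaving out wild-type replicate 1 gave a difference of -0.53, and leaving out wild-type replicate 2 gave -0.87.

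Gbp5 shared no exon base with another gene and no exact 100-base window of its main transcript with another gene in GENCODE M21. The protein-coding transcript ENSMUST00000090127 stood at 39.0 and 43.5 TPM in K97E libraries, against 68.7 and 55.4 TPM in wild-type libraries. ENSMUST00000196255, annotated for nonsense-mediated decay, stood at 15.6 and 15.7 TPM with K97E, against 29.96 and 23.7 TPM with wild-type lamin A. Both transcripts were lower in both K97E libraries.

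Gbp7 (ENSMUSG00000040253, chr3:142236103-142255910), named in mouse macrophages among the members that restrict Listeria and mycobacteria, had 150 and 158 TPM in K97E libraries, against 208 and 148 TPM in wild-type libraries. Here the groups overlapped, because wild-type replicate 2 was the lowest library in deposited TPM. The log2 difference of -0.25 (SE 0.172) became -0.0059 without wild-type replicate 1. Gbp7 shared 11.3% of its exon bases with the predicted gene Gm43802. Its protein-coding transcripts ENSMUST00000045097 and ENSMUST00000171263 held 88.2% and 11.8% of its level.

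Gbp3 (ENSMUSG00000028268, chr3:142265787-142278970) had 535 and 511 TPM with K97E, against 602 and 545 TPM with wild-type lamin A. The groups did not overlap, but wild-type replicate 2 stood close above K97E replicate 1. With a log2 difference of -0.19 (SE 0.107), the smallest of the 10 genes, it had means of 523 ± 16.7 and 573 ± 39.9 TPM (SD, n = 2 each). Gbp3 took 41.0% and 37.4% of the chromosome 3 sum in K97E libraries, against 36.1% and 38.5% in wild-type libraries, and these shares overlapped. Its protein-coding transcripts ENSMUST00000106222 and ENSMUST00000106221 held 70.0% and 25.2% of its level.

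Gbp2 (ENSMUSG00000028270, chr3:142326363-142343769), a prenylated member that gathers on Toxoplasma vacuoles in mouse cells, had 565 and 636 TPM in K97E libraries, against 754 and 640.3 TPM in wild-type libraries. K97E replicate 2 and wild-type replicate 2 were nearly equal, while K97E replicate 1 and wild-type replicate 1 lay far apart. Its log2 difference was -0.27 (SE 0.142), with an unadjusted limma p of 0.108, and was -0.15 without wild-type replicate 1. Gbp2 rested on 74030 to 79746 estimated reads a library, and ENSMUST00000165774 held 98.2% of its level.

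A further family gene, Gbp2b, known as mouse Gbp1, lies inside the chromosome 3 cluster, between Gbp3 and Gbp2 (chr3:142300608-142324940). It is outside the 10 genes and was looked up after their values were seen. Gbp2b stood at 410 and 487 TPM in K97E libraries, against 672 and 523 TPM in wild-type libraries. The groups did not overlap, and the log2 difference was -0.47 (SE 0.173, adjusted limma p 0.965).

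On chromosome 5 the genes lie on the minus strand, in the genomic order Gbp8, Gbp9, Gbp4, Gbp10, Gbp6 and Gbp11, within 332 kb (GRCm39 chr5:105162016-105494338). Their summed level was 286 and 292 TPM in the K97E libraries, against 420.3 and 341 TPM in the wild-type libraries. The means were 289 ± 4.07 and 381 ± 56.1 TPM (SD, n = 2 each), a log2 ratio of -0.46 on scaled sums. Both K97E sums lay below both wild-type sums, and the K97E libraries were closer to each other than the wild-type libraries were. As on chromosome 3, the gap to wild-type replicate 2 was smaller than the spread between the wild-type libraries. The ratio was -0.30 without wild-type replicate 1, the smallest in size of the values with 1 library left out. As a share of the chromosome 3 sum, the chromosome 5 sum was 21.9% and 21.4% with K97E, against 25.2% and 24.1% with wild-type lamin A. The median log2 difference was -0.51 over the 6 genes of chromosome 5 and -0.26 over the 4 genes of chromosome 3, and the difference between the clusters was not tested.

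**Figure D2:**
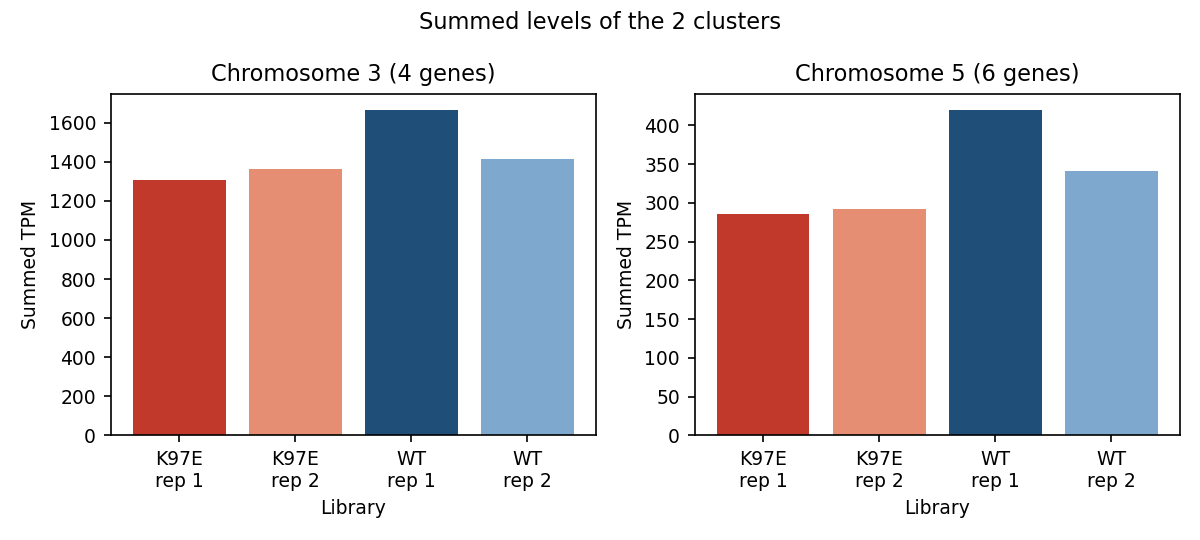
Summed deposited TPM of the 4 genes on chromosome 3 and of the 6 genes on chromosome 5 in each library (bars, 1 a library, axes from 0 with a separate scale for each cluster). On chromosome 5 the K97E bars stand at 286 and 292 TPM, against 420.3 and 341 TPM for the wild-type bars, and wild-type replicate 1 is the highest bar in both clusters.

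Gbp9 (ENSMUSG00000029298, chr5:105225496-105287405) was the most abundant gene of this cluster. It stood at 110 and 101 TPM in K97E libraries, against 155 and 134 TPM in wild-type libraries. The groups were separate by more than the spread within either, and K97E replicate 2 was the lower of the K97E libraries. The means were 105 ± 6.05 and 144 ± 14.5 TPM (SD, n = 2 each), and the log2 difference was -0.51 (SE 0.104, unadjusted limma p 0.00341, rank 47, adjusted p 0.965). Leaving out 1 library gave differences between -0.61 and -0.41. One of its transcripts, ENSMUST00000100961, begins in the first exon of Gbp4 and was listed at 0 in 3 libraries and at 19.2 TPM in wild-type replicate 2. The other exons of that transcript lie within those of ENSMUST00000031238. Leaving it out, which removed 2567 estimated reads from wild-type replicate 2 alone, gave a difference of -0.40. The protein-coding ENSMUST00000031238 held 62.9% and the retained-intron transcript ENSMUST00000196820 held 32.6% of the level.

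Gbp4 (ENSMUSG00000079363, chr5:105263633-105287452), described in mouse cells as an inhibitor of IRF7 activation, stood at 32.9 and 35.0 TPM in K97E libraries, against 53.3 and 40.6 TPM in wild-type libraries. Both K97E libraries were lower than both wild-type libraries. The log2 difference was -0.51 (SE 0.151), with an unadjusted limma p of 0.0173 and an adjusted p of 0.965, and it was -0.31 without wild-type replicate 1.

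The level of Gbp4 was divided differently among its transcripts in the 2 groups. The transcripts ENSMUST00000100962, annotated as protein-coding, and ENSMUST00000196204, annotated for nonsense-mediated decay, are the same except for 29 bases at the end of exon 2 of 11 (GRCm39 chr5:105284676-105284704, minus strand). The stretch is shown because it is the sole difference between them. It lies inside the coding sequence at transcript positions 315 to 343, and its length leaves a remainder of 2 when divided by 3. Capitals mark the 29 bases, between 30 bases of exon on either side, read along the transcript.
Gbp4 with the 29 bases: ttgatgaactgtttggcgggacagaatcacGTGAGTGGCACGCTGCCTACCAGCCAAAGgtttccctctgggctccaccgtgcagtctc
Gbp4 without the 29 bases: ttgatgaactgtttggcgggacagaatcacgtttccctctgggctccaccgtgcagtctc
The transcript with the 29 bases stood at 14.2 and 16.2 TPM in K97E libraries, against 0 and 0.103 TPM in wild-type libraries. The transcript without them stood at 17.3 and 17.8 TPM with K97E, against 51.7 and 37.6 TPM with wild-type lamin A. As a share of Gbp4, the transcript with the 29 bases made up 43.2% and 46.4% with K97E, against 0% and 0.254% with wild-type lamin A. The shares were thus apart by far more than the spread within either group. A comparable division, with a transcript at 25% or more of its gene in both libraries of 1 group and under 1% in both of the other, was found in 64 genes, or 0.393% of those tested. StringTie divides reads between overlapping transcripts by a model, and the files hold no reads over the 29 bases by themselves, so the number of reads behind this split is not known here and the split was not tested. The sum over transcripts does not depend on it, whereas the most abundant transcript taken alone gave Gbp4 a log2 difference of -1.36.

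**Figure D3:**
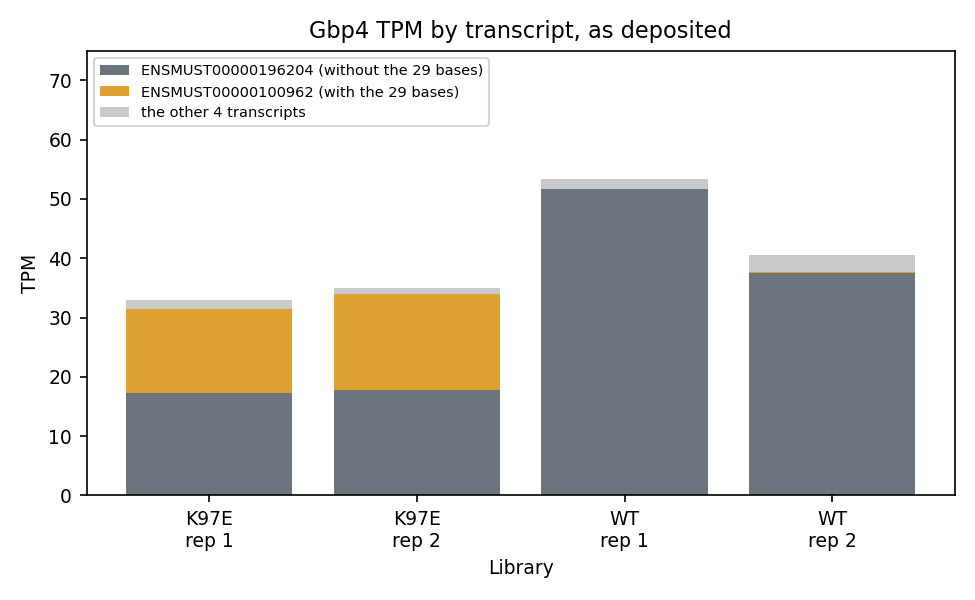
Deposited TPM of Gbp4 in each library, stacked by transcript (grey-blue, ENSMUST00000196204 without the 29 bases; orange, ENSMUST00000100962 with them; light grey, the other 4 transcripts). The orange part stands at 14.2 and 16.2 TPM in the K97E bars, against 0 and 0.103 TPM in the wild-type bars.

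Gbp8 (ENSMUSG00000034438, chr5:105162016-105287406) was the least abundant member. The upper end of this span comes from ENSMUST00000031235, which begins in the first exon of Gbp4 and was at 0 in all 4 libraries. Transcripts with a level above 0 reach no further than chr5:105201422. Gbp8 stood at 3.16 and 3.38 TPM in K97E libraries, against 4.93 and 4.52 TPM in wild-type libraries, on 561 to 683 estimated reads. The groups did not overlap, and the wild-type libraries differed less from each other than for any other member. The log2 difference was -0.52 (SE 0.143, unadjusted limma p 0.0124, adjusted p 0.965). Most of the level came from ENSMUST00000198326, a retained-intron transcript, at 3.11 and 3.27 TPM with K97E, against 3.29 and 3.49 TPM with wild-type lamin A. The remainder came from ENSMUST00000199483, a transcript with no annotated coding sequence, at 0.0525 and 0.107 TPM with K97E, against 1.64 and 1.03 TPM with wild-type lamin A. The first transcript alone differed by -0.13, so as StringTie divided the reads, the separation of the groups lay mostly in the second. That transcript rested on 5.27 and 10.2 estimated reads with K97E, against 132 and 97.1 with wild-type lamin A. It shares exons with other Gbp8 transcripts, so its level depends on StringTie's model, and the split was not tested. A single exon of 70 bases (chr5:105176395-105176464) had a mean depth of 202 and 168 reads with K97E, against 137 and 263 reads with wild-type lamin A, and held 15.9% to 27.0% of the gene's aligned bases.

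Gbp10 (ENSMUSG00000105096, chr5:105363565-105387399) and Gbp6 (ENSMUSG00000104713, chr5:105418568-105441564) were named with Gbp7 among the mouse members that restrict Listeria and mycobacteria in macrophages. Gbp10 stood at 59.6 and 64.5 TPM with K97E, against 82.2 and 64.2 TPM with wild-type lamin A. Its groups overlapped in deposited TPM, with K97E replicate 2 just above wild-type replicate 2, and did not overlap after scaling. Gbp10 differed by -0.28 on the log2 scale (SE 0.145), and by -0.11 without wild-type replicate 1. Gbp6 stood at 50.5 and 49.7 TPM with K97E, against 72.5 and 54.2 TPM with wild-type lamin A. The K97E libraries were nearly equal and below both wild-type libraries. Gbp6 differed by -0.38 on the log2 scale (SE 0.150, unadjusted limma p 0.0487), and by -0.17 without wild-type replicate 1.

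The values of Gbp6 and Gbp10 cannot be fully separated. The predicted gene Gm43302 spans both and shares 28.99% of the exon bases of Gbp6 and 46.3% of those of Gbp10. Of the exact 100-base windows of their main transcripts, 84.6% for Gbp6 and 70.9% for Gbp10 also occurred in another gene, against at most 10.2% for the other 8 members. Counting only other members, the shares were 47.5% for Gbp6 and 57.0% for Gbp10, against at most 5.13% for the other 8. Gm43302 itself stood at 66.9 and 64.4 TPM in K97E libraries, against 78.5 and 71.3 TPM in wild-type libraries (log2 difference -0.25, adjusted limma p 0.965). The main transcript of Gbp6, ENSMUST00000200045, held 88.0% of its level and is annotated for nonsense-mediated decay, and ENSMUST00000199944, a retained-intron transcript, held 10.1%. For Gbp10 the protein-coding ENSMUST00000065588 held 88.9% and the retained-intron ENSMUST00000196634 held 11.1%.

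Gbp11 (ENSMUSG00000092021, chr5:105470908-105494338) stood at 30.1 and 37.9 TPM in K97E libraries, against 52.7 and 43.4 TPM in wild-type libraries. The groups did not overlap, and K97E replicate 1 was the lowest library. The log2 difference was -0.55 (SE 0.167, unadjusted limma p 0.0180, adjusted p 0.965), and it was -0.36 without K97E replicate 1 and -0.42 without wild-type replicate 1. Its main transcript ENSMUST00000100960, at 89.4% of the level, is annotated as a polymorphic pseudogene in GENCODE M21, and the protein-coding ENSMUST00000171587 held 10.6%.

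The libraries kept nearly the same order from gene to gene. Wild-type replicate 1 was the highest of the 4 libraries after scaling for 10 of 10 genes, beside 33.0% of all genes tested, and it was above wild-type replicate 2 for 10 of 10, beside 49.6%. K97E replicate 1 was the lowest for 8 of 10, beside 23.3% of all genes tested, and K97E replicate 2 was the lowest for Gbp3 and Gbp9. Relative to the gene mean on the log2 scale, wild-type replicate 1 deviated by a median of 0.36 and wild-type replicate 2 by a median of 0.04. The medians were -0.24 for K97E replicate 1 and -0.13 for K97E replicate 2. Wild-type replicate 1 exceeded wild-type replicate 2 by a median log2 difference of 0.31 (0.11 for Gbp8 to 0.48 for Gbp7), beside a median size of 0.17 for that difference over all genes tested.

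**Figure D4:**
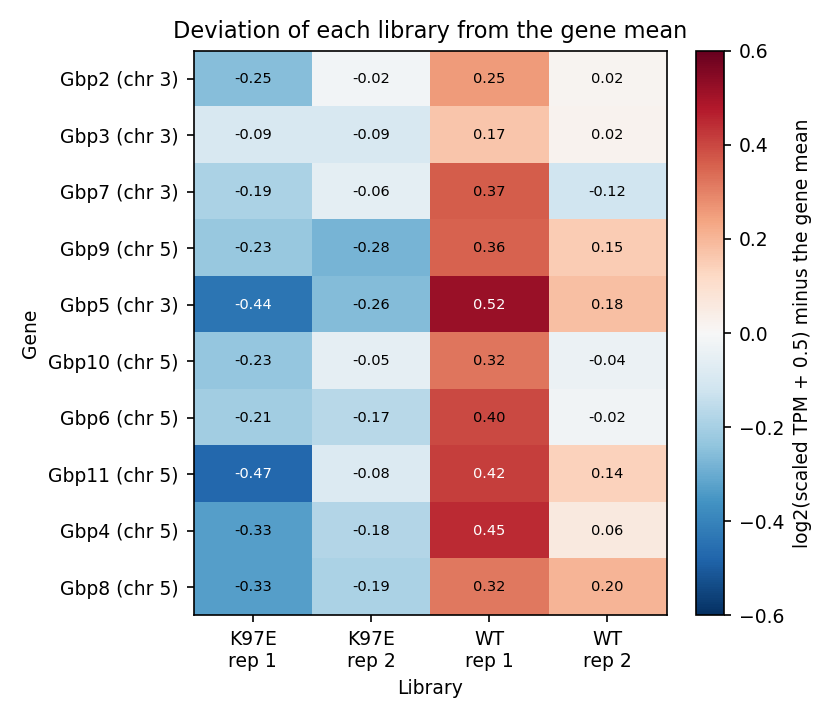
Deviation of each library from the mean of the 4 libraries for each gene, on log2 of scaled TPM + 0.5 (red, above the gene mean; blue, below; value printed in each cell; genes ordered by mean level). The wild-type replicate 1 column is red for all 10 genes (0.17 to 0.52), the K97E columns are blue for all 10, and wild-type replicate 2 lies between -0.12 and 0.20.

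Without wild-type replicate 1 the median log2 difference of the 10 genes was -0.24, against -0.44 with all libraries, and all 10 differences were negative. Without wild-type replicate 2 it was -0.58, without K97E replicate 1 it was -0.36 and without K97E replicate 2 it was -0.44, again with 10 of 10 negative in each. Without wild-type replicate 1 the difference was -0.53 for Gbp5, -0.46 for Gbp8, -0.41 for Gbp9, -0.15 for Gbp2 and -0.12 for Gbp3. The part of the lower depth and higher mitochondrial share of wild-type replicate 1 in these differences was not tested.

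**Figure D5:**
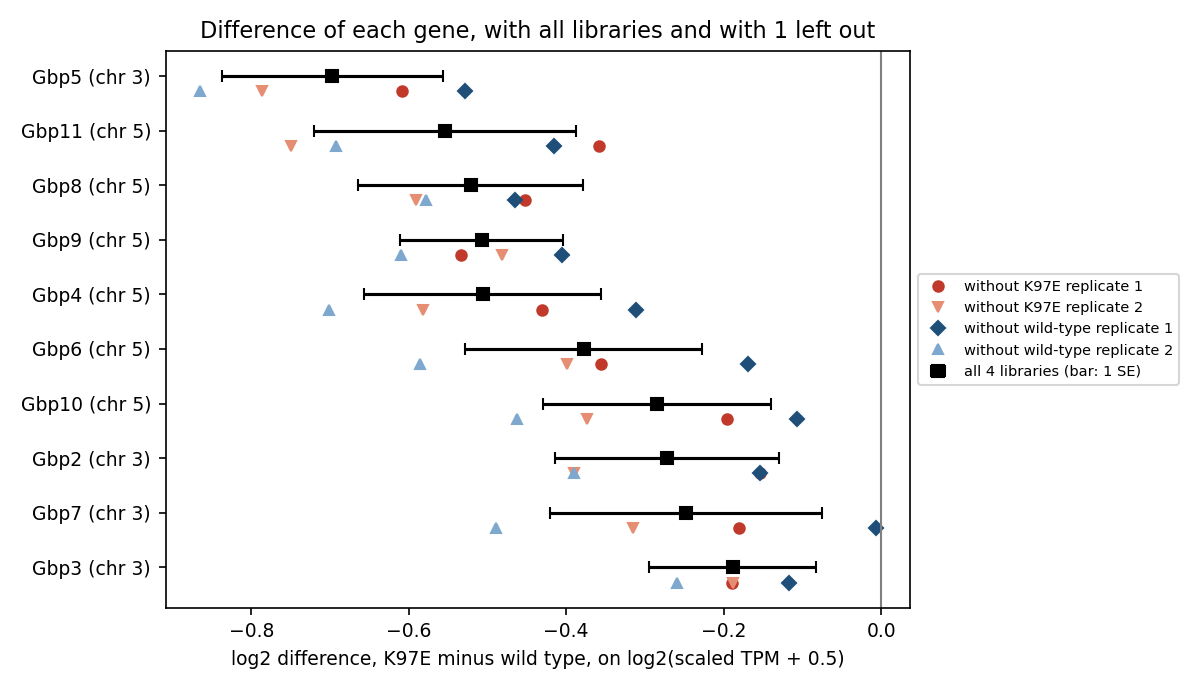
Log2 difference (K97E minus wild type, on log2 of scaled TPM + 0.5) of each gene with all 4 libraries (black squares, bars 1 SE) and with each library left out in turn (coloured marks), ordered by size. All marks lie below 0; the mark without wild-type replicate 1 is nearest to 0 for all genes but Gbp11 and Gbp8, and for Gbp7 it reaches -0.0059.

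Genes next to the clusters had differences of both signs, all but 1 of them near 0. Beside the chromosome 3 cluster, the cytoskeletal adaptor gene Pdlim5 stood at 78.1 and 61.9 TPM with K97E, against 58.7 and 66.3 TPM with wild-type lamin A (log2 difference 0.10). The general transcription factor gene Gtf2b had a log2 difference of -0.05 and the amino acid enzyme gene Kyat3 one of -0.07. Beside the chromosome 5 cluster, the channel subunit gene Lrrc8b stood at 7.34 and 7.21 TPM with K97E, against 6.40 and 6.58 TPM with wild-type lamin A (log2 difference 0.10). The zinc finger gene Zfp951 differed by -0.08 and the predicted gene Gm42141 by 0.06. The predicted gene Gm5870 differed by 0.45 at under 1 TPM in every library. None of these neighbours, which were the nearest 1 or 2 measured genes on each side, passed the limma test (adjusted p 0.965 to 0.987).

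In the list of interferon receptors and transcription factors, 15 of 17 measured genes had a lower K97E mean, beside 50.5% of all genes tested. Limma called 0, and 1 was lower with an unadjusted p under 0.05, beside 2.54% of all genes tested. The median log2 difference of the 17 genes was -0.14. The list also holds Nlrc5 and the cytokine genes Tnf and Il1b, and whether each gene acts upstream of the family was not tested. Nlrc5, which drives MHC class I genes, stood at 38.6 and 37.6 TPM with K97E, against 45.0 and 44.5 TPM with wild-type lamin A (log2 difference -0.29, SE 0.0841). Both K97E libraries were below both wild-type libraries. Irf2, an antagonist of IRF1, differed by -0.32 (SE 0.156). Irf8, Tnf and Il1b were listed at 0 in all 4 libraries, and Ifng was not analysed here.

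The caspase-11 and inflammasome list, the best known downstream arm, had 6 of 7 measured genes lower with K97E, beside 50.5% of all genes tested, and a median of -0.30. Limma called 0, and 3 were lower with an unadjusted p under 0.05, beside 2.54% of all genes tested. Casp4, which encodes mouse caspase-11, stood at 246 and 215 TPM with K97E, against 277 and 291 TPM with wild-type lamin A (log2 difference -0.36, SE 0.0972). The DNA sensor gene Aim2 stood at 25.2 and 21.5 TPM with K97E, against 26.6 and 30.8 TPM with wild-type lamin A (-0.35 on the log2 scale). Casp1, whose product matures interleukin-1 beta, stood at 4.27 and 4.39 TPM with K97E, against 5.97 and 5.53 TPM with wild-type lamin A (-0.42 on the log2 scale). In these genes wild-type replicate 1 was not always the highest library. For Casp4 and Aim2 it was below wild-type replicate 2, unlike in any of the guanylate-binding protein genes.

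Immunity-related GTPases, partners on parasite vacuoles, had 7 of 8 measured genes lower with K97E, beside 50.5% of all genes tested, 0 called by limma and 0 at an unadjusted p under 0.05, with a median of -0.17. Irgm2 stood at 368 and 364 TPM with K97E, against 414 and 391 TPM with wild-type lamin A, without overlap. Igtp stood at 555 and 621 TPM with K97E, against 628 and 613 TPM with wild-type lamin A, and overlapped in deposited TPM. Gvin1, a very large interferon-inducible GTPase gene, differed by -0.41 (SE 0.219) with overlapping groups.

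The other 3 lists lay near 0 or above it, with 0 genes called by limma and 0 at an unadjusted p under 0.05 in each. The ATG8 conjugation genes had 6 of 10 lower, beside 50.5% of all genes tested, and a median of -0.03, with Atg3, the conjugating enzyme, at -0.26, Gabarap at -0.09 and Map1lc3a at 0.32. The prenylation enzymes had 1 of 6 lower and a median of 0.11, and which of them act on Gbp2 and Gbp5 was not tested. In that list the farnesyltransferase subunit gene Fntb stood at 14.5 and 13.8 TPM with K97E, against 11.8 and 11.4 TPM with wild-type lamin A, while Icmt and Rce1 differed by 0.23 and 0.13. The dynamin superfamily relatives had 5 of 12 lower and a median of 0.04, with the interferon-inducible Mx1 at -0.38 and Mx2 at -0.25 and the mitochondrial fusion gene Mfn2 at 0.19.

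Markers of other cell types gave low or overlapping sums. The 12 leukocyte markers summed to 59.8 and 56.7 TPM with K97E, against 48.7 and 66.7 TPM with wild-type lamin A, mostly Cd14, with 4 measured and Adgre1, Cd3e and Tyrobp at 0 in all 4 libraries. The 10 endothelial markers summed to 21.01 and 22.2 TPM with K97E, against 24.9 and 22.4 TPM with wild-type lamin A, with 2 measured and Kdr, Tie1 and Cldn5 at 0. These sums did not overlap between the groups. The 2 measured genes, Cdh5 and Flt1, differed by -0.14 and -0.30 on the log2 scale, and limma called 0. The 8 fibroblast markers summed to 1842 and 2204 TPM with K97E, against 1763 and 2406 TPM with wild-type lamin A, with 5 measured and Lum at 0. Most of that sum was Col3a1. Of these 5, limma called 0 and 2 had a negative log2 difference, beside 50.5% of all genes tested. Pdgfrb, Pdgfra and Col1a1 were higher in both K97E libraries, by 0.19, 0.13 and 0.08 on the log2 scale. Col3a1 and Dcn differed by -0.12 and -0.38 with overlapping groups. The 8 epithelial markers summed to under 1 TPM in each library, with Cdh1 at 0. The 9 myoblast markers summed to 730.2 and 746 TPM with K97E, against 732 and 872 TPM with wild-type lamin A, with 7 measured. Of the 7, limma called 0. A negative log2 difference was found in 5, beside 50.5% of all genes tested, while Cdh15 and Itga7 differed by 0.03 and 0.01. Those with an unadjusted limma p under 0.05 were Vcam1 and Chrna1, both lower (2 of 7), beside 2.54% of all genes tested. Vcam1 stood at 45.8 and 52.7 TPM with K97E, against 63.8 and 64.7 TPM with wild-type lamin A. Chrna1 stood at 40.2 and 41.3 TPM with K97E, against 49.8 and 51.8 TPM with wild-type lamin A. The part of these marker differences in the values of the guanylate-binding protein genes was not tested.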

How the data were processed

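RNA of 4 libraries (2 K97E, 2 wild type) was sequenced as paired reads of 100 bases from a stranded kit, per the labels' protocols. The submitters' processing notes name HISAT2, FastQC, SAMtools, DESeq2 and StringTie 2.1.7 with GRCm39; DESeq2's role was not stated in these sources, and it was not run here. StringTie, per the file headers, estimated annotated transcripts of Ensembl release 104 with no strand option. How far reads of overlapping antisense genes were told apart is therefore not known here. The deposited files give TPM, FPKM, coverage and exon depth for 142434 transcripts, and no read counts, so counting intervals are not given. Estimated reads are coverage times length over the read length.

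TPM was summed per gene, divided by a median-of-ratios factor (0.980 to 1.04) and tested as log2(TPM + 0.5) in limma 3.58.1 (R 4.3.3) with a mean-variance trend, two-sided, over 16304 genes with a mean of at least 0.5 TPM. Fold changes on this scale understate the change of low genes. Calls needed a Benjamini-Hochberg adjusted p under 0.05. An exact permutation test of 2 against 2 samples cannot go below 0.333, so none is given. The limma code was tested on simulated data. Tables were made with Python 3.11.15 and pandas 2.3.3, exon overlaps with bedtools 2.31.1 and plots with matplotlib 3.10.9. Transcript types and sequences came from GENCODE M21 by transcript identifier. Named genes were the 10 members, from each pathway list the 3 measured genes ranking first by unadjusted p, the nearest 2 measured genes on each side of a cluster within 500 kb, and transcripts with at least 10% of a member's level; some genes under this rule or in the marker lists are not reported here. The members and lists were chosen with earlier results of these data known. Same-numbered samples did not deviate together (r -0.137), so no pairing was used.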

Additional observations from a re-analysis of the deposited data

How the results depend on the processing

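The members were computed under 20 alternatives (pseudocounts, filters, scalings, FPKM, variance settings, voom weights, transcripts, exons, blocks and libraries left out), which gave 185 values. Of these, 0 changed sign. Of the 173 with a limma test, 0 were called, and the other 12 (unshared exon bases, or transcripts left out) had no test. The lowest adjusted p was 0.0559, for Gbp5 under the crossed pairing. The cluster log2 ratios without 1 library lay between -0.38 and -0.14 on chromosome 3 and between -0.60 and -0.30 on chromosome 5. The number of genes called over all genes, 1, was 0 with no filter or without genes with overlapping exons, 2 with TPM as deposited or without the variance trend, and 4 with voom weights. It lay between 0 and 12 without 1 library, with 12 (3 higher and 9 lower) without wild-type replicate 1. The replicate block gave 0 calls and moved no member past the threshold. A crossed pairing of the replicate numbers, added after the data were seen, gave 30 calls, 3 higher and 27 lower. The causes were not tested. Scaling moved the median of all genes by 0.054 on the log2 scale. With 1 library left out, the lone library of its group is assumed to vary like the others. Depth limits Gbp8 most, and shared sequence limits Gbp6 and Gbp10.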
